A study of Homo sapiens with 8 samples.

Results

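The 10 genes described here encode the enzymes and partner proteins that build coenzyme Q (ubiquinone) in human cells, namely PDSS1, PDSS2, COQ2, COQ3, COQ4, COQ5, COQ6, COQ7, COQ8A and COQ9. They were chosen by name and not by a rule on measured values, though with earlier results of these data known. All 10 were found among the 58219 genes listed for each library. All 10 also passed the filter on low counts and so were among the 13129 protein-coding genes tested. The libraries came from H929 and KMS11, established lines grown from human multiple myeloma, a cancer of plasma cells, and both carry the t(4;14) translocation. Each line was given 2 µM fluvastatin, a statin, or ethanol, the solvent in which fluvastatin was dissolved, and RNA was taken after 24 h. There were 2 biological replicates for each of the 4 groups, giving 8 libraries of total RNA depleted of ribosomal RNA, with 26702515 to 41910446 expected counts each. Each line is a single model of the translocation.

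Coenzyme Q is a lipid of the inner mitochondrial membrane that takes electrons from respiratory complex I, complex II and several other dehydrogenases and hands them to complex III. It has a quinone ring that carries the electrons and a long isoprenoid tail that anchors it in the membrane. The tail is assembled from products of the mevalonate pathway, the pathway that statins inhibit, and the ring is then modified by a set of COQ proteins that gather in a complex on the matrix side of the membrane.

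The labelled cell type was checked against marker genes. All 8 plasma cell markers (SDC1, TNFRSF17, IRF4, PRDM1, XBP1, CD38, SLAMF7 and MZB1) stood at or above 1 TPM (transcript abundance divided by length and scaled to the same total in each library) in H929, and 7 of 8 did in KMS11, where CD38 was near 0 at 0.025 TPM in ethanol. NSD2 and FGFR3, the genes deregulated by the translocation, were present in both lines. Of 11 markers of other cell types, only CD3E in H929 (1.54 TPM in ethanol) and EPCAM in KMS11 (33.9 TPM in ethanol) reached 1 TPM.

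The tail enzyme is a heteromer of PDSS1 (ENSG00000148459.15, chr10:26697701-26746798, plus strand) and PDSS2 (ENSG00000164494.11, chr6:107152562-107459564, minus strand), on the GRCh38 build. COQ2 (ENSG00000173085.13, chr4:83261536-83284914, minus strand) joins the tail to the ring precursor. The ring hydroxylases are COQ6 (ENSG00000119723.16, chr14:73949926-73963670, plus strand) and COQ7 (ENSG00000167186.10, chr16:19067614-19080095, plus strand). The ring methyltransferases are COQ3 (ENSG00000132423.11, chr6:99369401-99394195, minus strand) and COQ5 (ENSG00000110871.14, chr12:120503279-120534434, minus strand). COQ4 (ENSG00000167113.10, chr9:128322544-128334072, plus strand) is needed for the complex to hold together, COQ8A (ENSG00000163050.16, chr1:226940286-226987544, plus strand) is an atypical kinase-like ATPase that supports it, and COQ9 (ENSG00000088682.13, chr16:57447425-57461270, plus strand) is a lipid-binding partner of COQ7. ABI1 overlaps the end of PDSS1, RNF10 overlaps COQ5, and FAM161B and ENTPD5 overlap COQ6, each on the opposite strand. A protein-coding gene on the same strand, ENSG00000288674 (chr1:226870184-226987545), covers all of COQ8A. It had no count value in the libraries, so reads of the 2 genes could not be told apart here. The library kit keeps strand, but the strand setting of the counting step is not given in the sources used here.

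The stretches before the transcription start are shown for PDSS1 and COQ8A because these were among the members that fell in H929 (below), and shorter stretches are shown for COQ2 and COQ5 because they hold the matches to rarer motifs. Sequences are from RefSeq on GRCh38.p14, where 13 start sites of 8 members had an entry. COQ3 and COQ4, which were also called lower in H929 (below), had none and so were not searched. Capitals mark matches on either strand to NRF1 core GCATGCGC, SREBP element TCACNCCAC, CRE TGACGTCA, CCAAT box CCAAT or GC box GGGCGG (in the COQ2 and COQ5 stretches only the first 3), and no 2 matches overlap. Each stretch ends at the base before the start, except that of COQ2, which runs 10 bases past it.
PDSS1, chr10:26697451-26697700, plus strand: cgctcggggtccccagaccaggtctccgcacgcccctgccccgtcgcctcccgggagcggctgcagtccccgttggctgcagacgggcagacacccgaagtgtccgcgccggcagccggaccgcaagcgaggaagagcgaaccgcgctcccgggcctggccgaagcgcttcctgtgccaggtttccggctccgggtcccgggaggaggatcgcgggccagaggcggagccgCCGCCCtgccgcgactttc
COQ8A, chr1:226940044-226940293, plus strand: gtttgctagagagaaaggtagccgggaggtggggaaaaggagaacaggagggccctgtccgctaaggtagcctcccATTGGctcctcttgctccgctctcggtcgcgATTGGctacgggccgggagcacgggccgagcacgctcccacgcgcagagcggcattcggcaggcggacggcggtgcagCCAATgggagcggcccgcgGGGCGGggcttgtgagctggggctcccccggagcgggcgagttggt
COQ2, chr4:83284789-83284858, minus strand: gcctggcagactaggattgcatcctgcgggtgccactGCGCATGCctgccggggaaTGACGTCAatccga
COQ5, chr12:120529159-120529218, minus strand: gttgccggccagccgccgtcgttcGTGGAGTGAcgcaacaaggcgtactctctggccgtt

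The NRF1 core was present in 3.05% of the 35116 promoter windows of this length, from 250 bases before to 50 after the start, and COQ2 was the only one of the 8 members with a window that had it. The CRE was in 1.85% of windows and again in COQ2 alone among these 8. The SREBP element, the kind of site bound by the sterol-sensing regulators of the mevalonate genes, was in 1.13% of windows and among the 8 only in COQ5. The ETS core CCGGAAG (10.3% of windows), the E-box CACGTG (7.26%) and the ATF4 element TGATGNAA (3.62%) matched in no window of these 8. The CCAAT box (34.6%) and the GC box (45.0%), added after the other motifs had been searched, were common everywhere, and COQ8A held 3 CCAAT boxes and 1 GC box against a single GC box in PDSS1. A match is a description of the letters in the window and was not set against any measured binding.

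The members were expressed at moderate levels in the untreated cells. TPM, which is scaled per transcript length, allows genes to be ranked within a library, and in the ethanol libraries of H929 the order ran from COQ9 at 16.0 ± 0.516 TPM (SD, n = 2) down to COQ7 at 3.56 ± 0.728 TPM. COQ8A followed COQ9 at 13.3 ± 0.219 TPM, then COQ5 at 12.2 ± 0.566, PDSS1 at 10.8 ± 1.61 and COQ4 at 9.32 ± 0.120 TPM. The libraries of COQ5 and PDSS1 overlapped, as did those of PDSS2 and COQ2 and those of COQ2 and COQ3, so these neighbours could not be ordered.
The lower group in H929 held PDSS2 at 5.75 ± 0.233, COQ2 at 5.36 ± 0.587, COQ3 at 5.24 ± 0.495 and COQ6 at 4.67 ± 0.113 TPM. Set against all tested genes in that group, COQ9 stood at the 76.6th percentile of TPM and COQ7 at the 43.2nd.

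In the ethanol libraries of KMS11, COQ9 at 28.2 ± 0.0424 TPM and PDSS1 at 28.1 ± 0.629 TPM shared the top of the order and overlapped. COQ5 at 19.9 ± 1.39, COQ8A at 17.9 ± 0.283 and COQ4 at 16.8 ± 0.530 TPM came next, each apart from its neighbour. COQ7 stood at 9.97 ± 0.834 and COQ2 at 7.66 ± 0.693 TPM, and PDSS2 at 5.57 ± 0.0141, COQ3 at 5.17 ± 0.219 and COQ6 at 4.49 ± 0.205 TPM were the lowest. COQ6 therefore took the bottom rank that COQ7 held in H929, and PDSS1, below COQ8A in H929, was level with COQ9.
Under fluvastatin COQ3 was the lowest member in both lines, at 3.17 ± 0.240 TPM in H929 and 3.35 ± 0.481 TPM in KMS11. The 10 members together summed to 83.9 and 88.5 TPM in the ethanol libraries of H929 and to 65.2 and 72.5 TPM in its fluvastatin libraries. In KMS11 the sums were 146 and 142 TPM in ethanol and 109 and 128 TPM under fluvastatin. In each line both fluvastatin sums lay below both ethanol sums. The median TPM of all tested genes was 5.12 and 4.87 in ethanol and 5.04 and 5.07 under fluvastatin in H929. In KMS11 it was 6.91 and 6.44 in ethanol and 6.27 and 6.57 under fluvastatin. The sums were not adjusted for such shifts and were not tested. All values are relative to the rest of each library, and in bulk RNA fewer cells with a transcript and less of it per cell cannot be told apart.

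**Figure D1:**
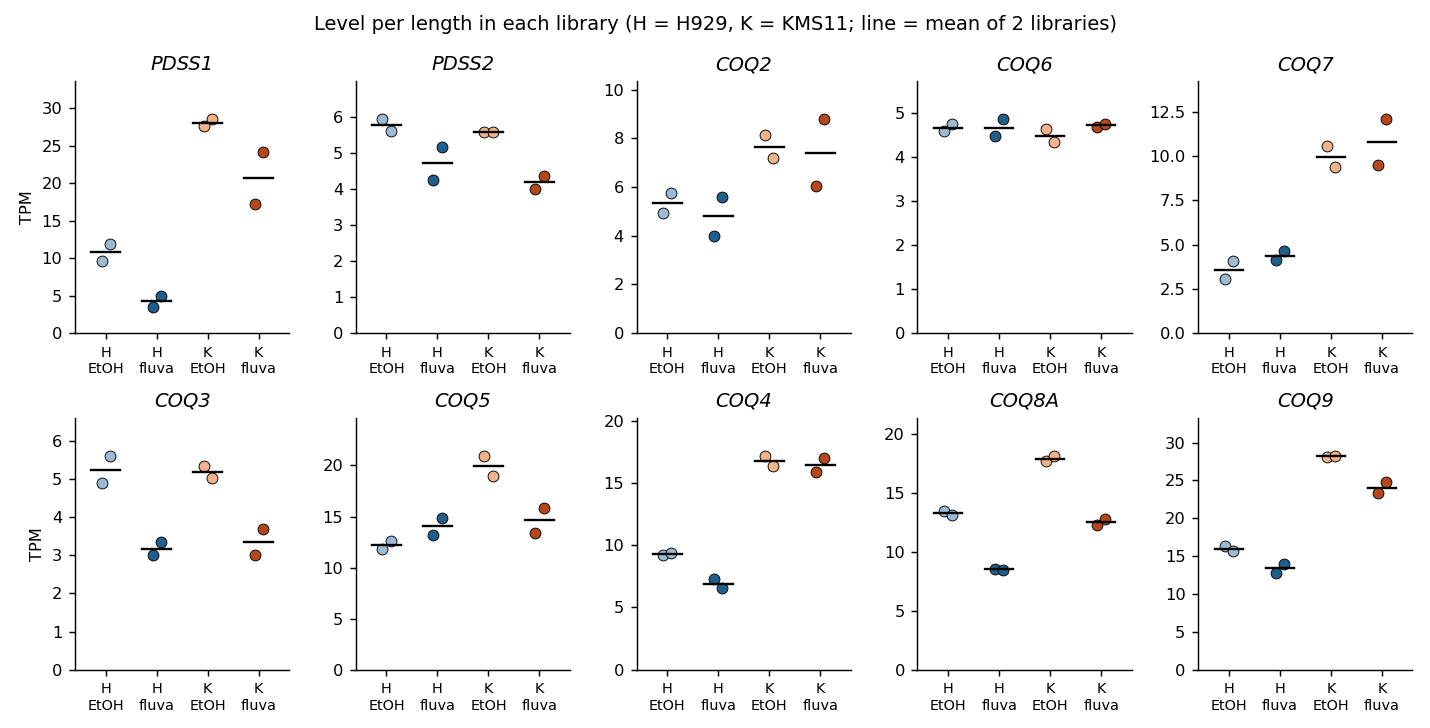
TPM of each member gene in each of the 8 libraries, with 1 panel per gene and its own vertical axis from 0. Points are libraries and lines are the means of 2; PDSS1 in KMS11 ethanol sits at 28.1 TPM against 10.8 TPM in H929 ethanol.

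The lines differed in most members before any drug was given. Against H929, KMS11 had 3 of 10 members higher, namely COQ7, PDSS1 and COQ9, where 35.6% of all tested genes were called higher. It had 4 of 10 lower, namely PDSS2, COQ6, COQ3 and COQ8A, where 36.4% of all tested genes were called lower. These shares are near those of the tested genes as a whole, so the number of calls is not a result about the members. The test was edgeR's quasi-likelihood test on rounded expected counts with Benjamini-Hochberg adjustment over all tested genes, and levels below are CPM, counts scaled to a common library size with TMM factors, which are not divided by length. Whether the libraries of the compared groups overlapped is stated below as a description of the tested values. It adds no support to a test, and its share over all tested genes is not given.

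COQ7, the hydroxylase that acts late on the ring, differed most. It stood at 9.94 and 12.4 CPM in the ethanol libraries of H929 and at 26.3 and 27.3 CPM in those of KMS11, with no overlap. The difference was 1.26 on the log2 scale (SE 0.15, 2.40-fold, edgeR adjusted p = 3.5e-05), and it was past the threshold under all 18 alternatives fitted, from 1.11 to 1.47.
PDSS1 stood at 25.3 and 33.0 CPM in H929 and at 47.9 and 51.2 CPM in KMS11, again without overlap. It was 1.70-fold higher in KMS11 (log2 0.77, SE 0.17, edgeR adjusted p = 0.0025) and past the threshold under all 18 alternatives, with a difference of 1.31 on log2(TPM + 1). Its partner subunit PDSS2 went the other way, from 39.8 and 38.6 CPM in H929 to 24.5 and 26.9 CPM in KMS11 (log2 -0.61, SE 0.12, edgeR adjusted p = 0.00099).

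COQ6, the other hydroxylase, had 11.2 and 11.3 CPM in H929 and 7.54 and 7.96 CPM in KMS11 (log2 -0.54, SE 0.15, edgeR adjusted p = 0.0074). COQ3 had 11.7 and 13.4 CPM in H929 and 8.38 and 8.92 CPM in KMS11 (log2 -0.54, SE 0.16, edgeR adjusted p = 0.013). Neither gene's libraries overlapped between the lines.
COQ9 was modestly higher in KMS11, at 47.7 and 52.1 CPM against 42.2 and 39.7 CPM (log2 0.28, SE 0.10, edgeR adjusted p = 0.030). The size of this difference depended on the scale, at 0.78 in limma on log2(TPM + 1) and 0.71 with GC trends removed. COQ2, COQ4 and COQ5 were not past the threshold, with log2 differences of -0.05, 0.16 and 0.15 and SEs of 0.18, 0.12 and 0.11.
COQ8A was lower in KMS11 on the count scale, at 53.5 and 58.4 CPM against 73.7 and 68.5 CPM (log2 -0.35, SE 0.11, edgeR adjusted p = 0.016), but its direction turned with the scale. It was higher in KMS11 by 0.40 in limma on log2(TPM + 1) and by 0.45 with each library's GC trend removed, with adjusted p = 0.0077 and 0.00091.

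The scale moved all genes as well as the members. On log2(TPM + 1) the median of all tested genes was 0.31 higher in KMS11, against -0.02 on the count scale, and with GC trends removed it was 0.14. Relative to that median, COQ8A was 0.09 higher on TPM and 0.30 higher with GC trends removed. PDSS2, COQ6 and COQ3 lost their calls on log2(TPM + 1), at -0.04, -0.05 and -0.01, and relative to the median they were at -0.35, -0.36 and -0.33. COQ4 and COQ5 were called higher there, at 0.78 and 0.66, and relative to the median at 0.47 and 0.35. With GC trends removed COQ4 was again called higher, at 0.79 (edgeR adjusted p = 2.1e-05), or 0.65 relative to the median. COQ9 was 0.46 above the median on TPM and 0.57 above it with GC trends removed.
The number of calls fell from 7 to 3 without KMS11 ethanol replicate 1, and without it COQ9, COQ3 and COQ6 were among those not past the threshold, with adjusted p = 0.050, 0.089 and 0.056. All 8 plasma cell markers were lower in KMS11 than in H929 in ethanol (summed 893 to 921 TPM against 2000 to 2140 TPM), and their part in the member differences was not tested.

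**Figure D2:**
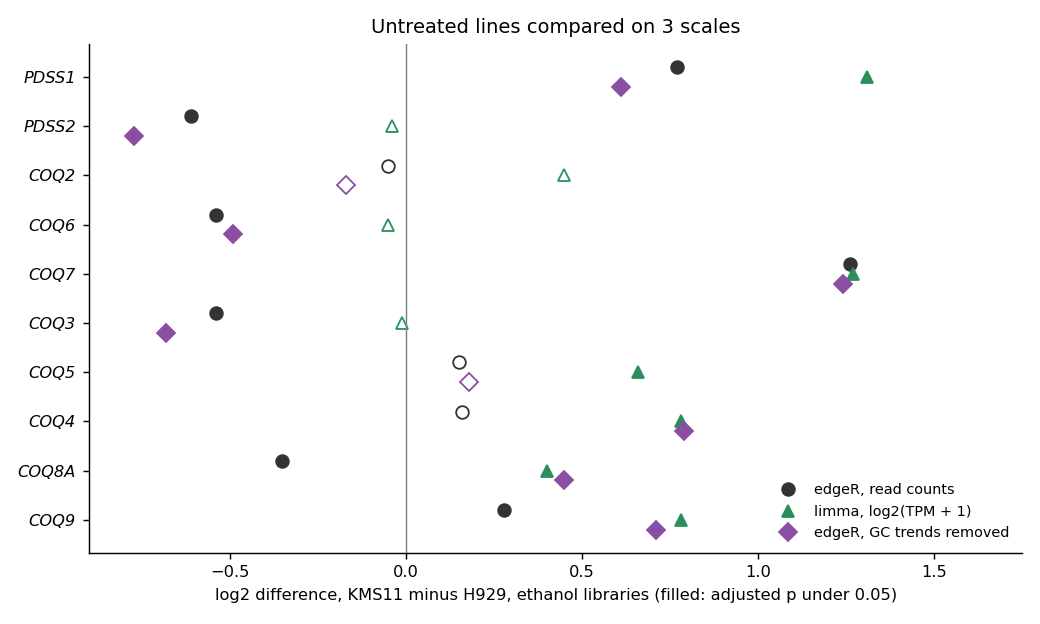
Difference of each member between KMS11 and H929 in ethanol, on the log2 scale, from edgeR on counts, limma on log2(TPM + 1) and edgeR with GC trends removed; filled symbols have an adjusted p under 0.05. COQ7 and PDSS1 lie to the right of 0 on each scale, whereas COQ8A lies at -0.35, 0.40 and 0.45.

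In H929, fluvastatin lowered the tail synthase subunit PDSS1, the ATPase COQ8A, the methyltransferase COQ3 and the complex protein COQ4. These 4 of 10 members were called lower, where 19.3% of all tested genes were, and 0 of 10 were called higher, where 22.7% of all tested genes were. At an unadjusted p under 0.05 edgeR had 6 members lower and 0 higher. The share of all tested genes at that threshold is not given here, so this count is not a result about the members. DESeq2 gave no higher call either, where it called 20.8% of all tested genes higher. The median of the members was -0.28 on the log2 scale against 0.02 over all tested genes. With GC and length trends removed COQ5 was called higher, where 29.1% of all tested genes were.

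PDSS1 fell from 25.3 and 33.0 CPM in the ethanol libraries to 10.2 and 12.6 CPM in the fluvastatin libraries of H929. Both treated libraries lay well below both controls. The change was -1.35 on the log2 scale (SE 0.18, 2.55-fold lower, edgeR adjusted p = 0.00034), and it was called under all 19 alternatives, from -1.53 to -1.15.
PDSS2, which makes the same enzyme, stood at 39.8 and 38.6 CPM in ethanol and 29.2 and 33.8 CPM under fluvastatin. Its groups did not overlap, but the difference of -0.32 (SE 0.12) was just short of the threshold (edgeR adjusted p = 0.054) and was past it under 7 of 19 alternatives. COQ2, which follows in the pathway, had 14.6 and 17.3 CPM in ethanol and 12.3 and 15.9 CPM under fluvastatin, and its groups overlapped.

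Among the ring enzymes COQ3 fell from 11.7 and 13.4 CPM to 6.76 and 7.49 CPM in H929. The groups did not overlap, and the change was -0.81 (SE 0.17, 1.76-fold lower, edgeR adjusted p = 0.0032), called under all 19 alternatives from -0.91 to -0.58. The other methyltransferase, COQ5, had 32.3 and 36.0 CPM in ethanol and 36.9 and 40.2 CPM under fluvastatin, a difference of 0.18 (SE 0.11) that did not pass (edgeR adjusted p = 0.23). It passed under 1 of 19 alternatives, with GC and length trends removed (0.26, edgeR adjusted p = 0.035).
The hydroxylase COQ7 had 9.94 and 12.4 CPM in ethanol and 13.8 and 13.4 CPM under fluvastatin, a difference of 0.28 (SE 0.15, edgeR adjusted p = 0.17). COQ6 had 11.2 and 11.3 CPM in ethanol and 11.3 and 11.8 CPM under fluvastatin, a difference of 0.04 (SE 0.15). Neither hydroxylase passed the test.

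COQ8A fell from 73.7 and 68.5 CPM to 45.6 and 43.4 CPM in H929, with tight replicates and no overlap. The change was -0.68 (SE 0.11, edgeR adjusted p = 0.00097), called under all 19 alternatives from -0.73 to -0.48. COQ8B, the paralogue of COQ8A, had a difference of 0.18 (SE 0.25, edgeR adjusted p = 0.60) from 2.94 ± 0.884 TPM in ethanol.
COQ4 had 23.0 and 23.6 CPM in ethanol and 19.7 and 17.1 CPM under fluvastatin. Its call was at the edge of the threshold (-0.34, SE 0.12, edgeR adjusted p = 0.048) and held under 6 of 19 alternatives. It was lost without any of the 4 H929 libraries, without either KMS11 ethanol library and with GC trends removed, where the difference was -0.18. COQ9, the partner of COQ7, had 42.2 and 39.7 CPM in ethanol and 35.1 and 34.5 CPM under fluvastatin, a difference of -0.23 (SE 0.10, edgeR adjusted p = 0.098) with no overlap of the libraries.

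Of the plasma cell markers in H929, 4 of 8 were lower under fluvastatin (SLAMF7, SDC1, XBP1 and MZB1) and PRDM1 was higher, and the summed level of all 8 went from 2000 to 2140 TPM in ethanol to 1680 to 1730 TPM. The T cell gene CD3E rose by 1.13 on the log2 scale (SE 0.23, edgeR adjusted p = 0.0031), while CD3D, another part of the same receptor complex, had 0 counts in ethanol and 0 to 2 under fluvastatin. CD14 and COL1A2 were at 0 in all 4 H929 libraries. The part of these shifts in the member changes was not tested.

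**Figure D3:**
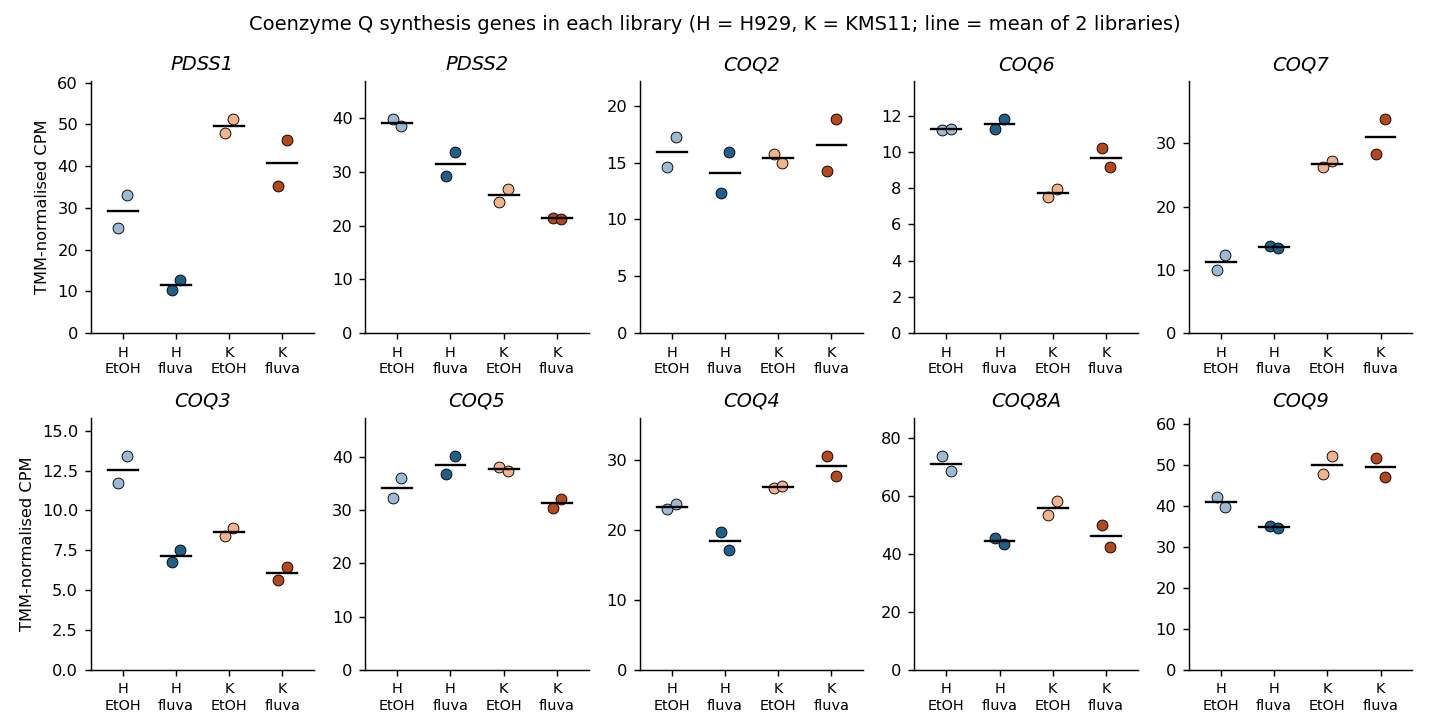
TMM-normalised CPM of each member gene in each of the 8 libraries, with 1 panel per gene and its own vertical axis from 0. Points are libraries and lines are means of 2; PDSS1 in H929 drops from 25.3 and 33.0 CPM in ethanol to 10.2 and 12.6 CPM under fluvastatin.

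In KMS11, 0 of 10 members were called in either direction by edgeR, where 2.58% of all tested genes were called higher and 0.533% lower. DESeq2 also called 0 members, where it called 5.0% of all tested genes higher and 2.05% lower. At an unadjusted p under 0.05 edgeR had 4 members lower, namely COQ3, COQ8A, COQ5 and PDSS2, and 0 higher. The share of all tested genes at that unadjusted threshold is not given here, so this count is not a result about the members. The members' median was -0.14 against 0.00 over all tested genes.
COQ3 had 8.38 and 8.92 CPM in ethanol and 5.63 and 6.47 CPM under fluvastatin in KMS11, without overlap. The difference of -0.51 (SE 0.16) had an edgeR adjusted p of 0.12, and it was past the threshold with GC trends removed (-0.44, adjusted p = 0.046) and without KMS11 fluvastatin replicate 2 (-0.66, adjusted p = 0.045). COQ8A had 53.5 and 58.4 CPM in ethanol and 49.8 and 42.3 CPM under fluvastatin, a difference of -0.28 (SE 0.11, edgeR adjusted p = 0.18). With GC trends removed it was -0.58 (adjusted p = 0.0031), so that 2 members were called lower in KMS11 in that fit, where 3.75% of all tested genes were.

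PDSS1 had 47.9 and 51.2 CPM in ethanol and 35.2 and 46.3 CPM under fluvastatin in KMS11. The treated replicates were far apart, both below the controls, and the difference was -0.28 (SE 0.17, edgeR adjusted p = 0.36), ranging from -0.10 without KMS11 fluvastatin replicate 1 to -0.54 without replicate 2. PDSS2 had 24.5 and 26.9 CPM in ethanol and 21.4 and 21.3 CPM under fluvastatin (-0.27, SE 0.12, edgeR adjusted p = 0.22).
COQ5 went from 38.1 and 37.4 CPM to 30.4 and 32.2 CPM without overlap (-0.27, SE 0.11, edgeR adjusted p = 0.19). COQ6 had 7.54 and 7.96 CPM in ethanol and 10.2 and 9.19 CPM under fluvastatin (0.32, SE 0.15, edgeR adjusted p = 0.23), also without overlap. Neither gene was called, and the lack of overlap is a description only. COQ7, COQ4, COQ2 and COQ9 differed by 0.21, 0.16, 0.11 and -0.02, with SEs of 0.14, 0.12, 0.18 and 0.10.

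The study compared the treatments over both lines together, and in such a fit, here with cell line as a term, fluvastatin lowered 2 of 10 members, COQ3 and COQ8A, where 3.93% of all tested genes were called lower. It raised 0 of 10, where 6.5% of all tested genes were called higher. At an unadjusted p under 0.05 edgeR had 4 lower and 0 higher, with the share of all tested genes at that threshold not given here. DESeq2 called 4 members, each of them lower, where it called 9.4% of all tested genes lower. COQ3 was at -0.66 (SE 0.14, edgeR adjusted p = 0.025) and COQ8A at -0.48 (SE 0.11, edgeR adjusted p = 0.032). For each gene both fluvastatin libraries were below both ethanol libraries within each line. The same was true of PDSS1 and PDSS2, which were not called. These are the values that were tested, so the separation adds no support, and its share over all tested genes was not counted.
PDSS1 had the lowest value of the members, -0.80, but with an SE of 0.23 it was not past the threshold (edgeR adjusted p = 0.057). PDSS2 was at -0.29 (SE 0.09, edgeR adjusted p = 0.073). COQ7 and COQ6 were at 0.24 and 0.18, and COQ9, COQ4, COQ5 and COQ2 at -0.12, -0.09, -0.05 and -0.03, none past the threshold. Both calls were lost without any 1 of the 4 H929 libraries, without KMS11 ethanol replicate 2, without the cell line term and with a replicate block (edgeR adjusted p = 0.080 for COQ3 and 0.10 for COQ8A).

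Whether the lines responded differently was tested directly, as KMS11 minus H929. PDSS1 was the only member past the threshold, 1 of 10 higher where 11.7% of all tested genes were called higher, and 0 of 10 were called lower where 11.5% were. At an unadjusted p under 0.05 edgeR had 3 members higher and 1 lower, with the share of all tested genes at that threshold not given here.
For PDSS1 the difference was 1.07 on the log2 scale (SE 0.25, edgeR adjusted p = 0.014), from -1.35 in H929 and -0.28 in KMS11. It passed under 16 of 19 alternatives. It did not pass on log2(TPM + 1) (0.73, limma adjusted p = 0.098) or log2(TPM + 0.1) (0.87, limma adjusted p = 0.067), nor without KMS11 ethanol replicate 1 (1.03, edgeR adjusted p = 0.071). Without KMS11 ethanol replicate 2 it was 1.13 and just within the threshold (edgeR adjusted p = 0.050).
COQ4 was at 0.50 (SE 0.17, edgeR adjusted p = 0.060) and COQ5 at -0.45 (SE 0.15, edgeR adjusted p = 0.062), both close to the threshold. With GC trends removed COQ4 was at 0.12 while COQ5 was past the threshold at -0.49. COQ5 passed under 7 of 19 alternatives, among them log2(TPM + 1) at -0.61 and log2(TPM + 0.1) at -0.64, where PDSS1 did not pass. COQ8A was at 0.39 (SE 0.16, edgeR adjusted p = 0.095) on the count scale and at -0.10 with GC trends removed, so its direction depended on that step. COQ3, which fell in H929, was at 0.30 (SE 0.23, edgeR adjusted p = 0.37).

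**Figure D4:**
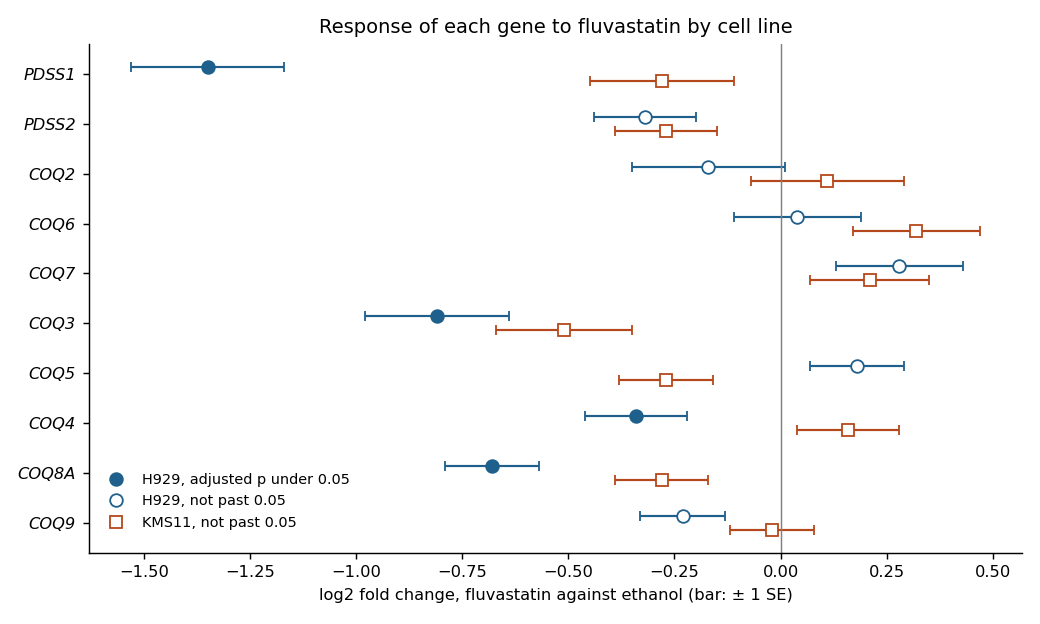
Log2 fold change of each member, fluvastatin against ethanol, in H929 (circles) and KMS11 (squares), with bars of 1 SE; filled symbols have an adjusted p under 0.05. PDSS1 at -1.35 in H929 and -0.28 in KMS11 is the pair of symbols that stands furthest apart.

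GC content differed among the members. PDSS1, PDSS2 and COQ3 had GC contents of 42.6%, 42.9% and 43.7%, below the median of 49.2% over the tested genes. COQ8A, COQ4 and COQ9 had the highest, at 59.1%, 57.3% and 54.8%, and COQ2, COQ7, COQ5 and COQ6 lay between 47.2% and 50.1%. With GC trends removed, the KMS11 minus H929 difference went from 0.39 to -0.10 for COQ8A, from 0.50 to 0.12 for COQ4 and from 0.22 to -0.07 for COQ9.
The effective length, an abundance-weighted measure of a gene's transcript lengths, can move when the mix of isoforms does. Whether isoforms or the lengths of the sequenced fragments in each library moved it here was not tested. For COQ7 it was 1413 to 1535 bases in the ethanol libraries of H929 and 1736 to 1870 bases in those of KMS11. For COQ8A it was 2416 to 2580 bases in H929 and 2075 to 2102 bases in KMS11. These ranges do not overlap, and the shorter COQ8A length raises its TPM in KMS11 relative to its counts. PDSS2 kept 3078 to 3201 bases in H929 and 3071 to 3117 bases in KMS11 over all libraries.

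The genes around the pathway were read from lists, against shares of all tested genes called of 22.7% higher and 19.3% lower in H929 and of 2.58% higher and 0.533% lower in KMS11. Upstream, 7 mevalonate genes between ACAT2 and FDPS had 6 higher and 0 lower in KMS11, led by HMGCS1 (2.04, SE 0.11, edgeR adjusted p = 1.3e-05), ACAT2 (1.34), IDI1 (1.02) and MVD (2.22), with a list median of 1.34. In H929 none of the 7 was higher and 3 were lower, namely ACAT2 (-0.66), FDPS (-0.51) and PMVK (-0.43), with a median of -0.45. That median was -0.23 with GC trends removed and -0.17 with GC and length trends removed. PDSS1, COQ3, COQ8A and COQ4 were called lower in H929, and 0 members were called in KMS11, where they were at -0.28, -0.51, -0.28 and 0.16. Of these genes only PDSS1 differed between the lines past the threshold when the difference itself was tested. Any link to the supply genes was not tested. COQ5, whose promoter stretch holds an SREBP element, was at -0.27 in KMS11 and not past the threshold (edgeR adjusted p = 0.19). Whether that match bears on its response was not tested.

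The 10 other users of farnesyl and geranylgeranyl diphosphate had 1 higher and 0 lower in KMS11, the squalene synthase FDFT1 (1.24, SE 0.12, edgeR adjusted p = 0.00044). In H929 they had 2 higher (GGPS1 0.67 and FNTA 0.40) and 2 lower (RABGGTB -0.81 and NUS1 -0.31). PDSS1 at -1.35 lay below each of these 10 genes in H929.
The 13 coenzyme Q accessory genes had 5 lower and 1 higher in H929 and 0 called in KMS11. With GC trends removed they had 4 lower and 3 higher in H929, with a median of -0.18. In that fit 23.0% of all tested genes were called lower and 30.7% higher, with a median of 0.07. HPDL, which works in the route to the ring precursor, was 2.82-fold lower (SE 0.15 on the log2 scale, edgeR adjusted p = 5.9e-05), from 14.4 ± 0.120 to 5.09 ± 0.0424 TPM, and COQ10B, a coenzyme Q-binding protein, rose by 0.60 (SE 0.11, edgeR adjusted p = 0.0017). NDUFA9 (-0.37) and STARD7 (-0.37) were also lower.

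The enzymes that pass electrons to coenzyme Q went in both directions in H929, with 5 of 12 lower and 3 higher. CHDH (-1.38), AIFM2 (-0.85) and SDHB (-0.47) were lower and SQOR (0.48) was higher, and 0 of 12 were called in KMS11. Of the 10 subunits of complex III, which takes electrons from coenzyme Q, 8 were lower in H929, led by CYC1 (-1.19, SE 0.19, edgeR adjusted p = 0.00076), UQCRH (-0.58) and UQCRQ (-0.55). With GC and length trends removed 5 were lower, where 23.9% of all tested genes were. The mitochondrially encoded MT-CYB was the exception and was higher in H929 (0.43) and in KMS11 (0.75), where it was the only subunit called. The list medians in H929 were -0.35 for the accessory genes, -0.18 for the reductases and -0.46 for complex III, beside -0.28 for the members and 0.02 for all tested genes, and the reductases' median was 0.03 on log2(TPM + 1).

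**Figure D5:**
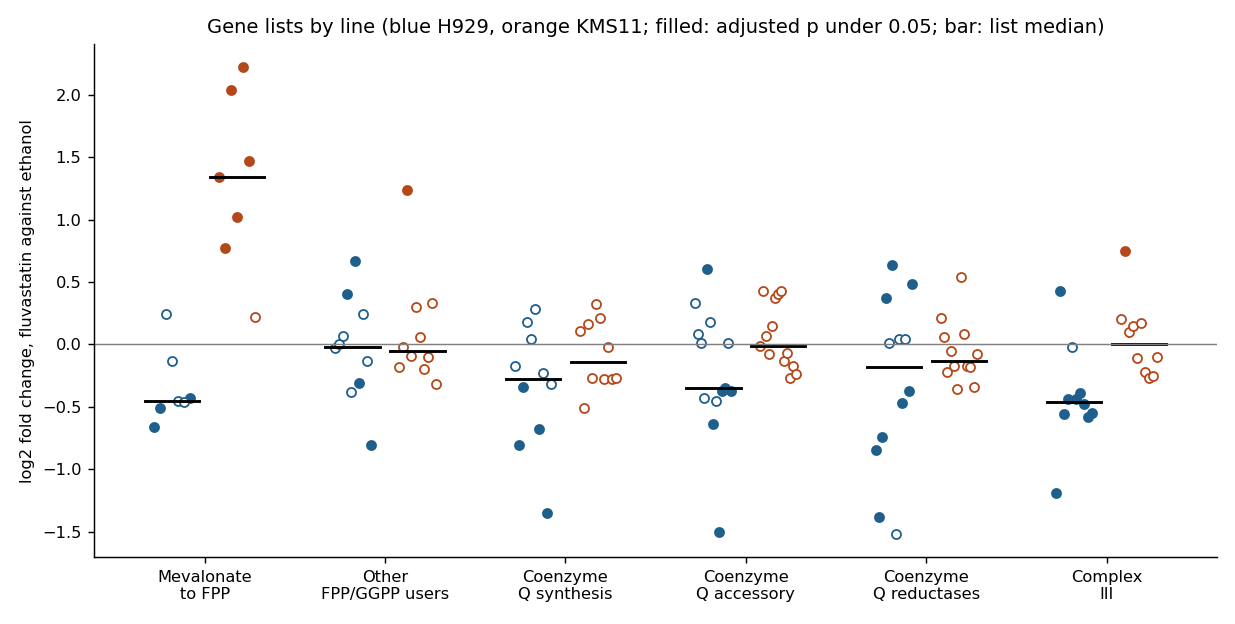
Log2 fold change, fluvastatin against ethanol, of each gene in 6 lists, in H929 (blue) and KMS11 (orange); filled points have an adjusted p under 0.05 and black bars are list medians. The mevalonate genes have medians of -0.45 in H929 and 1.34 in KMS11, against -0.28 and -0.14 for the coenzyme Q synthesis genes.

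The members did not all move with each other. With the mean of each line removed, PDSS1 and COQ3 had the highest Pearson correlation of log2 CPM over the 8 libraries (0.94), followed by PDSS2 with COQ3 (0.92), COQ8A with COQ9 (0.91) and COQ3 with COQ8A (0.88). COQ7 ran against COQ8A (-0.84) and COQ9 (-0.77), and COQ4 against COQ5 (-0.80). These correlations describe 8 libraries that share 2 lines and 2 treatments and carry no test.
Among all 13129 tested genes, the gene whose log2 CPM over the 8 libraries was nearest to that of PDSS1 was RPA2 (r = 0.998). For COQ3 it was GATC (r = 0.989), for COQ8A it was ADM (r = 0.973) and for COQ4 it was DEPDC5 (r = 0.992). The likeness includes the difference between the lines as well as the response to the drug.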

How the data were processed

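RNA-seq libraries of H929 and KMS11 cells were analysed from the gene-level tables, 1 per library. Per the labels, the authors aligned reads to hg38 with STAR 2.5.2b and estimated expected counts and TPM per gene with RSEM 1.3.0, and both deposited values were used, with the deposited effective length (in bases, another measure) read as a description. Deposited FPKM values were not used. Names and biotypes came from GENCODE release 44, in which 57392 of 58219 listed genes were found and 19683 were protein-coding.

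Expected counts were rounded and tested with edgeR 4.0.16 (R 4.3.3) by quasi-likelihood after TMM scaling and filterByExpr (minimum count 10, minimum total 15), with Benjamini-Hochberg adjustment over 13129 protein-coding genes and a threshold of 0.05. Across both lines cell line was a term; within lines, 4 group means shared 1 spread. Each group holds 2 biological replicates. Alternatives were DESeq2 1.42.0, limma 3.58.1 on log2(TPM + 1) or log2(TPM + 0.1), other scalings, filters and gene sets, removal of GC and length trends (loess), a replicate block, a threshold of 0.01 and leaving out each library. The fitting code was tested on simulated data.

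The members and the other lists were chosen with earlier results of these data known, and 1 gene of the mevalonate list is not reported here. All members were named in each comparison, and up to 4 genes of every other list past the threshold, by smallest p; the nearest gene was sought for up to 4 members past the threshold within either line. COQ8B, EPCAM, CD38, CD3E, CD3D and the CCAAT and GC boxes were named after their values were seen. The depth of 26702515 to 41910446 expected counts limits precision most for low genes such as COQ3.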

Additional observations from a re-analysis of the deposited data

Results flagged for a closer look

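The responses of the lines differed past the threshold in the test of the difference itself (KMS11 minus H929, edgeR, log2 scale) for 1 member, PDSS1, at 1.07. Among the other genes named, the difference was 2.00 for ACAT2, 1.80 for HMGCS1, 1.28 for FDPS, 1.15 for IDI1 and 2.67 for MVD in the mevalonate list. It was 1.17 for FDFT1, 0.49 for RABGGTB and -0.61 for GGPS1 among the other users of isoprenoid diphosphates. It was 1.37 for HPDL and 1.04 for FDX2 among the accessory genes, and 1.43 for CHDH, 1.06 for AIFM2, -0.56 for SQOR and -1.0 for NQO1 among the coenzyme Q reductases. In complex III it was 1.39 for CYC1, 0.66 for UQCR10, 0.59 for UQCR11 and 0.45 for UQCRQ. Among the cell type markers it was 1.27 for SDC1, 0.87 for SLAMF7, -0.46 for PRDM1 and -1.69 for CD3E. Groups of 2 libraries are too small for a check of single libraries against their group.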

How the results depend on the processing

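The calls of PDSS1, COQ3 and COQ8A within H929 held under all 19 alternatives, and the count of members called there stayed within 1.5 times of 4. The count across both lines (2) was 4 with DESeq2 or with GC trends removed, 0 with the replicate block, without the cell line term or at an adjusted p under 0.01, and 0 to 3 when 1 library was left out. The count within KMS11 (0) was 2 with GC trends removed, 1 with GC and length trends removed and 0 to 1 when 1 library was left out. The count for the difference between the lines (1) was 2 with a minimum count of 50, with GC trends or with GC and length trends removed, 3 with the replicate block, 0 at an adjusted p under 0.01 and 0 to 4 when 1 library was left out. The count between the lines in ethanol (7) was 4 at an adjusted p under 0.01 and 3 to 7 when 1 library was left out. When 1 library was left out, the lone remaining library was assumed to vary like the other groups. The share of all tested genes called moved too. Across both lines it was 10.4% (main fit), 19.5% (DESeq2), 21.4% (GC trends removed), 1.2% (block) and 0.0305% (no line term). Within KMS11 it was 3.12% in the main fit and 9.68% and 9.8% with GC or GC and length trends removed. For the difference it was 23.2% in the main fit and 26.2% with a minimum count of 50. It was 32.0% and 32.2% there with GC or GC and length trends removed, and 32.2% with the block.

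Same-numbered libraries deviated together in H929 (correlation 0.774 over 5561 genes) but not in KMS11 (-0.078), so the numbers were not taken as pairs; the block could not be fitted to the ethanol comparison of the lines, where block and line coincide.

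Values that changed sign on log2(TPM + 1) or log2(TPM + 0.1) were COQ8A (0.40 and 0.43) and COQ2 (0.45 and 0.51) between the lines in ethanol, COQ2 (-0.06 and -0.07) and COQ4 (-0.03 and -0.03) within KMS11, PDSS2 (-0.10 and -0.12) in the difference between the lines, and COQ6 within H929 (0.00 on both). With GC trends or GC and length trends removed these were COQ8A (0.45 and 0.47) in ethanol, COQ8A (-0.10 and -0.07) and COQ9 (-0.07 and -0.10) in the difference, and COQ4 within KMS11 (-0.06 and -0.03), and with GC and length trends removed COQ2 across both lines (0.01), UQCR11 (-0.05) and UQCRQ (-0.26) in the difference. COQ6 within H929 was -0.01 among all annotated genes, and COQ9 within KMS11 was 0.01 with library size scaling. Leaving out 1 library turned values near 0 across both lines for COQ2 (-0.18 to 0.07) and COQ4 (-0.18 to 0.00), within KMS11 for COQ2 (-0.15 to 0.28) and COQ9 (-0.11 to 0.02), in the difference for PDSS2 (-0.05 to 0.16) and COQ7 (-0.24 to 0.09), in ethanol for COQ2 (-0.17 to 0.08), and within H929 for COQ8B (-0.06 to 0.47). The causes were not tested. Depth limits the low members most, such as COQ3 at 5.63 to 13.4 CPM.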
